A study of Mus musculus with 454 samples.

Results

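Single neurons of the mouse nodose ganglion carrying the target code IntM were compared with those carrying the code IntD. Cells were taken by the target code that the deposited read table gives each picked cell, with at least 2000 genes above 0 reads. This gave 45 IntM cells and 35 IntD cells in a series of 454 samples, all but 1 of which are picked cells. The sources used here do not expand the codes, which are printed as written. The series also held a droplet library of whole ganglia, and its stated subject is how vagal sensory neurons act on feeding. All mice were C57BL/6, labelled wild type and 8 to 12 weeks old, and no treatment separates the codes in the labels. IntM cells came from mice 15, 20 and 26, with 15, 13 and 17 cells, and IntD cells from mice 14, 18 and 19, with 17, 14 and 4 cells. The other codes used for reference were IntP (4 mice), IntL (3), GastG (5), GastP (3) and Port (8). The mean of log2(CPM + 1) over the cells of a mouse was 1 replicate, where CPM is a gene's read count scaled to a common cell total.

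The nodose ganglion holds the cell bodies of vagal sensory neurons, whose peripheral branches end in the gut, heart and lungs and whose central branches end in the brainstem. These neurons fall into types that differ in their receptors and peptides. Some detect hormones such as cholecystokinin released by the gut lining, and others respond to stretch, acidity or other stimuli.

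The cells of both codes were deeply sequenced and carried a marker of nodose neurons. Median reads per cell were 1370328 in IntM and 1796303 in IntD. One cell of IntM mouse 26 held 3934 reads and 2026 genes. No pair of cells had identical values. Htr3a, a serotonin-gated channel subunit abundant in nodose neurons, reached 10 reads in 45 of 45 IntM cells and 34 of 35 IntD cells. Its level was not even across codes, with means of 11.7 in IntM, 12.29 in IntD and 12.52 in IntP. In the other codes the means ran from 4.79 in GastP to 7.62 in IntL. Prdm12, a factor of the neighbouring jugular neurons, reached 10 reads in 0 of 80 cells, which allows a share of up to 3.75% by counting error alone. The 5 jugular markers summed to 187.01 to 191.3 CPM per mouse in IntM and 211.5 to 269.2 in IntD, and the 5 pan-neuronal markers to 11565 to 12004 and 11919 to 12332. The summed level of 7 satellite glia markers ran from 595 to 1223 CPM in IntM mice and from 709 to 810 in IntD mice, and that of 6 myelinating Schwann cell markers from 583 to 1178 and from 912 to 1764. Both ranges overlapped. The 5 endothelial markers summed to at most 4.62 CPM in any of the 6 mice, with Cdh5 at 0 reads, and the 6 macrophage markers to at most 3.07 CPM, with C1qa and Ptprc at 0 reads. The 6 fibroblast and mural markers summed to 3.11 to 5.77 CPM in IntM and 5.47 to 10.95 in IntD, and the 5 red blood cell markers to 0.942 to 6.30 and 3.29 to 6.49. The 4 sympathetic neuron markers, which include Th and Dbh, summed to 235.7 to 873 CPM in IntM and 68.9 to 308.4 in IntD.

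No gene passed the threshold between IntM and IntD. Of 12705 genes tested, 0 (0%) had an adjusted p under 0.05 in either direction (limma, Benjamini-Hochberg). The lowest adjusted p was 0.28. At an unadjusted p under 0.05 there were 676 genes, 5.32% of those tested. EdgeR on reads summed per mouse also called 0 genes, with 760 at an unadjusted p under 0.05. DESeq2 called 65 higher and 17 lower of the 12665 genes it tested. The 3 mice of each code did not overlap for 726 genes higher in IntM (5.71%) and for 630 lower in IntM (4.96%). The 95% interval of the difference was within 2 log2 units on both sides of 0 for 98% of genes and within 1 unit for 73.7%. A difference beyond 2 units was thus bounded for nearly all genes, and one beyond 1 unit for fewer of them. The values below therefore describe 6 mice. In a mouse mean, fewer cells of a type and less RNA per cell cannot be told apart.

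The 3 genes that mark the comparison were all higher on average in IntM, and none passed the threshold. They were chosen with earlier results of these data known, so their shared direction is no test. Uts2b encodes urotensin 2B, a secreted peptide (chr16:27353322-27370239 of GRCm38, minus strand). Its mean level was 1.81, 3.34 and 3.06 in IntM mice 15, 20 and 26, and 1.24, 1.01 and 0.85 in IntD mice 14, 18 and 19. Every IntM mouse lay above every IntD mouse. The difference was 1.70 ± 0.49 (SE; 95% interval 0.69 to 2.71), with an adjusted p of 0.84 (limma). Kcnk2 encodes TREK-1, a 2-pore potassium channel opened by stretch and lipids (chr1:189207930-189402273, minus strand). Its level was 5.09, 4.58 and 5.59 in the IntM mice and 3.41, 4.36 and 2.95 in the IntD mice, again without overlap. The difference was 1.51 ± 0.54 (SE; interval 0.40 to 2.63), with an adjusted p of 0.90 (limma). Adora1 encodes the inhibitory adenosine A1 receptor (chr1:134199223-134235431, minus strand). Its level was 6.04, 5.34 and 7.45 in the IntM mice and 4.33, 5.59 and 2.64 in the IntD mice. IntD mouse 18 lay above IntM mouse 20, so the groups overlapped. The difference was 2.09 ± 0.54 (SE; interval 0.98 to 3.19), with an adjusted p of 0.84 (limma). Without IntD mouse 19, the mouse with 4 cells, it was 1.31.

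Across all 7 codes the 3 genes followed different orders. Uts2b was highest in IntM, at 2.73 ± 0.81 (SD, n = 3 mice), followed by IntL at 1.33 ± 1.59, where 1 of the 3 mice lay within the IntM range, and IntD at 1.03 ± 0.20. The other codes had means between 0.42 and 0.57. Kcnk2 was lowest in IntP, at 2.15 ± 0.97 (SD, n = 4). It stood at 3.57 ± 0.72 in IntD and 3.68 ± 0.72 in IntL, which did not differ beyond their spread, and between 4.47 and 5.09 in Port, GastP, GastG and IntM, which lay within each other's spread. Adora1 was lowest in IntD, at 4.19 ± 1.48, and IntL, at 4.45 ± 0.40. The means of the other codes ran from 6.07 in GastG to 6.71 in IntP, and IntM stood among them at 6.28 ± 1.08.

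**Figure D1:**
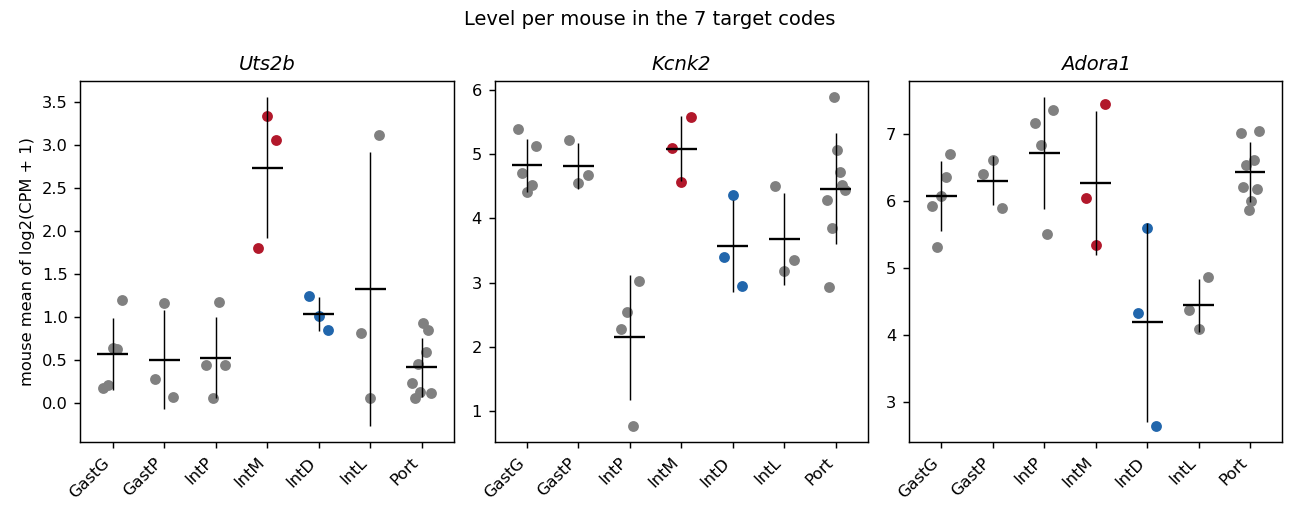
Mean log2(CPM + 1) per mouse (points) of Uts2b, Kcnk2 and Adora1 in the 7 target codes, with the mean of each code (horizontal line) and its SD (vertical line). IntM is red and IntD blue. For Uts2b and Kcnk2 the 3 IntM mice lie above the 3 IntD mice, and for Adora1 they overlap.

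The 5 genes of lowest p that were higher in IntM encode a cytoskeletal protein, a channel regulator, a kinase, a receptor and a transporter. All missed the threshold in limma, and DESeq2 called Fgf14 (adjusted p = 0.021) and Slc16a3 (adjusted p = 0.00028). Septin8 (written 8-Sep in the table, matched to RefSeq by its synonyms; chr11:53519257-53549565) encodes a septin, a filament-forming GTPase. Its level was 6.69, 6.68 and 6.96 in the IntM mice and 6.34, 5.96 and 5.64 in the IntD mice, a difference of 0.80 ± 0.16 (SE) with an adjusted p of 0.28 (limma). It passed the threshold in the fit without IntD mouse 14 (difference 0.98, adjusted p = 0.023, limma). Without IntD mouse 19, the mouse with 4 cells, the difference was 0.63 and missed the threshold. Fgf14 (chr14:123977907-124677127) encodes an intracellular factor that binds voltage-gated sodium channels. It was 3.92, 2.69 and 3.81 in IntM and 2.27, 2.25 and 1.13 in IntD. Hunk (chr16:90386013-90499553), a serine/threonine kinase, was 1.56, 1.69 and 1.38 in IntM and 0.46, 0.45 and 0 in IntD. Slc16a3 (chr11:120948480-120960868), the lactate transporter MCT4, was 3.56, 3.26 and 4.15 in IntM and 2.50, 2.08 and 1.84 in IntD. For Septin8, Fgf14, Hunk and Slc16a3 the 3 mice of each code did not overlap. The fifth was Adora1. Their differences, Septin8 apart, ran from 1.24 for Hunk to 2.09 for Adora1, each with an adjusted p of 0.84 (limma).

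The 5 genes of lowest p that were lower in IntM include a pair from the immune region of chromosome 17. H2-Ab1 (chr17:34257689-34269419) encodes the beta chain of a class II molecule that presents peptides to T cells. Its level was 1.21, 2.16 and 0.17 in the IntM mice and 3.16, 1.99 and 3.44 in the IntD mice, so 1 mouse of each code overlapped. The difference was -1.69 ± 0.41 (SE; interval -2.52 to -0.85). C2 (chr17:34862604-34898265), complement component 2, was 1.03, 0.84 and 0.37 in IntM and 2.03, 1.75 and 3.66 in IntD, a difference of -1.73 ± 0.46 without overlap. Class II molecules are best known from macrophages and other immune cells, whose markers are given above. Eif2s1 (chr12:78861819-78887010), the alpha subunit of the translation initiation factor eIF2, was 6.73, 7.01 and 6.41 in IntM and 7.14, 7.18 and 7.27 in IntD. Hpcal1 (chr12:17690856-17791933), a neuronal calcium sensor, was 8.82, 8.32 and 7.92 in IntM and 9.26, 9.40 and 10.04 in IntD. Oplah (chr15:76296601-76328015), an enzyme of the glutathione cycle, was 3.71, 4.73 and 4.03 in IntM and 5.22, 5.13 and 5.43 in IntD. For these last 3 genes the mice did not overlap either, and the adjusted p of all 5 was 0.84 (limma). DESeq2 called C2 (adjusted p = 0.019) and Oplah (adjusted p = 0.031). Without IntD mouse 19 the C2 difference was -1.14.

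**Figure D2:**
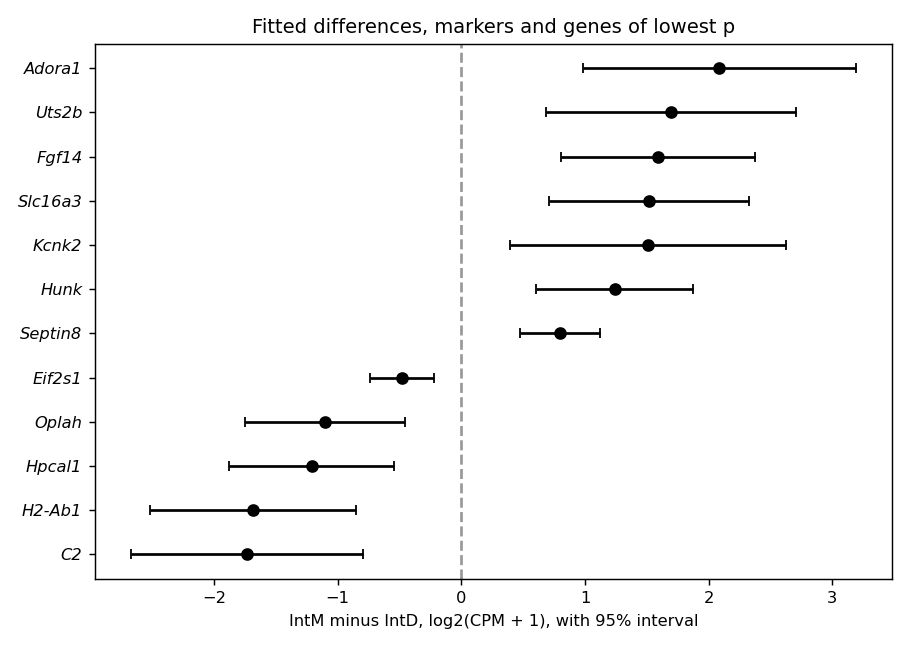
Fitted IntM minus IntD difference in log2(CPM + 1) (point) with its 95% interval (bar) for the 3 marker genes and the 5 genes of lowest p in each direction. The intervals are those of single genes, and no gene passed the threshold over the 12705 tested.

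In the other codes these genes did not share 1 pattern. Hunk was 1.54 in IntM, 1.47 in IntL and 1.55 in Port, against 0.30 in IntD and 0.53 in IntP. Slc16a3 was 3.66 in IntM and 4.02 in IntL, against 2.14 in IntD and 2.68 in IntP. Septin8 was 5.98 in IntD and between 6.42 and 7.06 in every other code. Fgf14 was 3.48 in IntM, 3.05 in Port, 2.93 in IntP, 2.60 in GastP, 2.27 in IntL, 2.22 in GastG and 1.88 in IntD. Hpcal1 was 9.81 in IntP and 9.56 in IntD, 8.35 in IntM, and between 7.37 and 7.93 in the rest. H2-Ab1 was 2.86 in IntD and 2.28 in IntL, 1.18 in IntM, and 0.71 in Port. C2 was 2.61 in GastP and 2.48 in IntD, 0.75 in IntM and 0.96 in Port. Eif2s1 was 7.20 in IntD and 6.72 in IntM, with every other code between 6.84 and 6.97. Oplah was 4.16 in IntM and between 5.0 and 6.19 in every other code.

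Immediate early genes were the list with the highest median difference. These genes encode transcription factors and regulators that neurons switch on within minutes of stimulation, and tissue dissociation is also known to switch them on. Of 19 tested members, 18 had a positive IntM minus IntD difference, against 6276 of all 12705 genes, and 0 passed the threshold in limma. DESeq2 called 1 higher, the nuclear receptor gene Nr4a1 (1.36, adjusted p = 0.0021), against 65 of 12665 genes higher over all. In 10 of the 19 all IntM mice lay above all IntD mice, against 5.71% of all genes. The median difference was 0.72, against -0.0029 over all genes. Fos was 7.44, 7.34 and 8.21 in the IntM mice and 6.30, 6.64 and 5.62 in the IntD mice, a difference of 1.47 ± 0.44 (SE; adjusted p = 0.84, limma). Fosb, Junb and Jund, which encode further AP-1 subunits, were separated too, while Fosl2 and Atf3 of the same family overlapped. Fosb was 2.05, 1.91 and 2.33 in IntM and 0.91, 1.24 and 0.45 in IntD. Junb was 6.37, 5.94 and 6.13 in IntM and 5.67, 5.46 and 5.34 in IntD. Jund was 5.71, 5.59 and 5.41 in IntM and 5.36, 5.02 and 4.85 in IntD. Jun, Egr1, Nr4a1, Dusp1, Arc and Hspa1a were the other members without overlap, with differences from 0.63 for Hspa1a to 1.06 for Egr1. The lowest member was Dusp6, a phosphatase that switches off ERK, at -0.46. Per the labels the ganglia were dissociated with papain, collagenase and dispase. Handling time is not given, and its part in these values was not tested.

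Several immediate early genes were lower in IntD than in the 2 other codes that begin with Int. IntD and IntM were each compared with the mean of IntP and IntL, so the comparisons share those 7 mice. In IntD, 6 of the 19 members fell below the IntP and IntL mean (limma, adjusted p under 0.05), against 91 of 12705 genes lower in IntD (0.716%), and 0 rose, against 30 genes higher in IntD (0.236%). Those 6 were Fos (-1.54, adjusted p = 0.039), Btg2 (-1.96, 0.0088), Egr1 (-1.91, 0.039), Dusp1 (-1.25, 0.012), Junb (-0.97, 0.0083) and Jund (-0.66, 0.0083), all by limma. In IntM, 0 of the 19 passed the threshold. The same 6 genes had IntM differences of -0.06, -0.64, -0.85, -0.45, -0.32 and -0.16, with adjusted p from 0.60 to 0.98 (limma). Whether the 2 codes' differences themselves differ is the IntM against IntD comparison above, which did not pass. Without IntD mouse 19 none of the 6 passed: their differences were -1.26, -1.41, -1.90, -1.21, -0.90 and -0.55, with adjusted p from 0.18 to 0.42 (limma). The mix of matched cell types in each code is given below, and its part in these values was not tested.

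**Figure D3:**
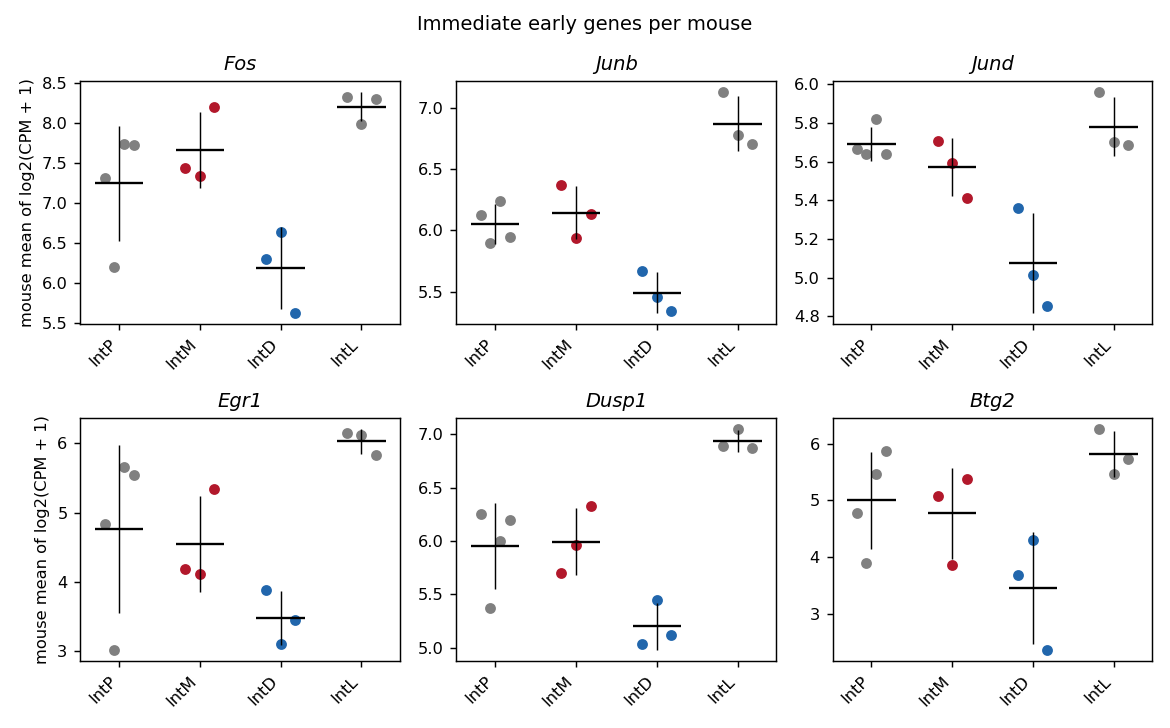
Mean log2(CPM + 1) per mouse (points), code mean (horizontal line) and SD (vertical line) of the 6 immediate early genes lower in IntD than in the mean of IntP and IntL. For Fos, Junb, Jund, Egr1 and Dusp1 the 3 IntD mice (blue) lie below the 3 IntM mice (red), and for Btg2 they overlap.

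The promoters of 3 of these 6 genes are shown as examples. Each holds at least the core of a cAMP response element, through which such genes are classically induced. Of the other 3, the Junb window held TGACG and the Jund window held neither motif, and Egr1 was not searched. The sequences are RefSeq windows on GRCm38.p6, 300 bases long and spanning the start of the gene. Capitals mark the motif TGACG on either strand, and where the pair of strands meet they give the full palindrome TGACGTCA. The windows are chr12:85473640-85473939 (Fos, plus strand), chr1:134079106-134079405 (Btg2, minus strand) and chr17:26508423-26508722 (Dusp1, minus strand).
Fos: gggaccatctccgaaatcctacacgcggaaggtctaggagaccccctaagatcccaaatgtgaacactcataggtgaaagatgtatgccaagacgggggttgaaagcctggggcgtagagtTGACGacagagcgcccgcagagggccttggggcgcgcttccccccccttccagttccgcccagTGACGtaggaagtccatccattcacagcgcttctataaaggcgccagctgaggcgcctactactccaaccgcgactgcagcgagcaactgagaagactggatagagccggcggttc
Btg2: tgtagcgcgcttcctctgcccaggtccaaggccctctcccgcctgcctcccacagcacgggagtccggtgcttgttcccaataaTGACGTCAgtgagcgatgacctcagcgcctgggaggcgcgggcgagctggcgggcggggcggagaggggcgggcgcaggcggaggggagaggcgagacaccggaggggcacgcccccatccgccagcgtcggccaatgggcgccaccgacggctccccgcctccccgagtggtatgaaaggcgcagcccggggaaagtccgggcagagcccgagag
Dusp1: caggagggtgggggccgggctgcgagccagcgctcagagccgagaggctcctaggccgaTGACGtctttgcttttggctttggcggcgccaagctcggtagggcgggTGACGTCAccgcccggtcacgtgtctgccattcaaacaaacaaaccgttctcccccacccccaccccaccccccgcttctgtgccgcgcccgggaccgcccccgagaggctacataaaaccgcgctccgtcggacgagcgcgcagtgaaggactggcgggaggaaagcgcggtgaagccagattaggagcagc
Of the 16 list members with a window in the RefSeq table, 8 held TGACG and 2 held TGACGTCA, in at least 1 window of the gene. Over the 27025 genes of the table the shares were 23% and 2.03%, and over its 32851 windows 20.8% and 1.79%. A match describes letters in the window and not a bound site.

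Receptors of gut sensing included several of the wide differences, and none passed the threshold in limma or DESeq2. Among 31 tested gut hormone and metabolite receptors, 4 were higher in every IntM mouse and 0 lower, against 5.71% and 4.96% of all genes, with a median difference of 0.05. Cckar, the receptor for the satiety hormone cholecystokinin, was 3.11, 3.96 and 4.34 in the IntM mice and 1.42, 2.27 and 1.72 in the IntD mice, a difference of 2.00 ± 0.76 (SE). Npy2r, the receptor for the gut hormone PYY, was 1.81, 3.11 and 3.47 in IntM and 1.59, 1.29 and 0 in IntD. Neither gene's mice overlapped. At the other end, Gpr65, a receptor that senses protons, was 5.63, 5.38 and 2.33 in IntM and 5.76, 4.39 and 8.87 in IntD, a difference of -1.89 ± 0.91 (SE) with overlap. Without IntD mouse 19 it was -0.63. Glp1r, the receptor for GLP-1, differed by 0.52 and its mice overlapped. Npy2r and Glp1r, like the immediate early genes other than Fos and Dusp6, were named after their values were seen.

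Over all genes 5.71% were higher and 4.96% lower in IntM without overlap, and no member of the next lists passed in limma. Genes DESeq2 called there include Pdyn (adjusted p = 5.9e-07) and Gabrb1 (adjusted p = 0.028). Among 22 tested neuropeptides, 5 were higher in every IntM mouse and 1 lower, with a median of 0.20. Vip, vasoactive intestinal peptide, was 2.54, 4.96 and 3.21 in the IntM mice and 2.07, 1.89 and 0.22 in the IntD mice. Adcyap1, the related peptide PACAP, was the lowest at -0.72, and its sign turned when reads were summed per mouse. Of 12 adenosine and P2 receptors 1 was higher in every IntM mouse and 0 lower (median -0.11), with Adora1 highest and the ADP receptor P2ry1 lowest at -1.10. The 25 opioid, monoamine, cannabinoid and nicotinic receptors had 4 higher and 2 lower without overlap (median 0.15). Their ends were the histamine autoreceptor Hrh3 at 0.99 and the nicotinic subunit Chrna6 at -1.90. Chrna6 was 4.31, 4.09 and 3.0 in IntM and 5.83, 5.21 and 6.08 in IntD. The 27 glutamate, GABA and glycine genes had 6 higher and 0 lower (median 0.20), from the NMDA receptor subunit Grin3a at 1.18 to the GABA-A subunit Gabrg1 at -0.78. With IntM mouse 26 left out P2ry1 was -0.16 and Gabrg1 -0.11, and with IntD mouse 19 left out Grin3a was 0.55.

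No channel or release gene passed the threshold in limma, and DESeq2 called Kcnj9 (adjusted p = 0.012) and Syt13 (adjusted p = 0.00095). Over all genes 5.71% were higher and 4.96% lower in IntM without overlap. The 2-pore potassium channels set the resting potential. Of 9 tested, 8 had a positive difference, against 6276 of all 12705 genes. Of the 9, 3 were higher in every IntM mouse and 1 lower, with a median of 0.14. Kcnk3, encoding the acid-sensitive channel TASK-1, was 3.60, 3.72 and 5.25 in the IntM mice and 2.60, 3.30 and 0 in the IntD mice, a difference of 2.22 ± 0.60 (SE). Without IntD mouse 19 it was 1.24. Kcnk18, encoding TRESK, ran the other way at 6.00, 5.35 and 4.31 against 6.12, 6.02 and 7.0. Of 41 other potassium channel genes, 7 were higher and 4 lower without overlap (median -0.02), with Kcnc2 at 1.36 and Kcnh8 at -1.40 as the ends. Sodium, calcium and HCN channels (29 tested) had 4 higher and 0 lower (median 0.05), from Hcn3 at 0.47 to Cacna2d3 at -0.99. TRP channels (16 tested) had 2 higher and 0 lower (median 0.10), with Trpc4 at 1.70 as the highest. Among 18 mechanosensation genes 1 was higher and 1 lower (median 0.00), with Kcnk2 at 1.51 and the stretch-gated channel Piezo1 at -1.17. Synaptotagmins and release genes (33 tested) had 3 higher and 1 lower (median 0.16), from Rab3c at 2.07 to Syt10 at -0.78. With IntM mouse 26 left out Kcnk18 was -0.71, Kcnh8 -0.83, Cacna2d3 -0.37 and Rab3c 1.04. With IntD mouse 19 left out Trpc4 was 0.95 and Syt10 -0.44.

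Identity and wiring genes showed no member past the threshold in limma either. DESeq2 called Ntrk3, Nefm, Cdh10, Cdh18 and Lsamp higher in IntM and Isl2 and S100b lower, with adjusted p from 0.0057 for Nefm to 0.038 for Isl2. Over all 12665 genes it tested, DESeq2 called 65 higher and 17 lower. In the mouse means, the unadjusted limma p was under 0.05 for S100b and Lsamp and above it for the rest of these genes. Transcription factors (46 tested) had 5 higher and 5 lower without overlap (median -0.05), from St18 at 1.53 to Zfhx4 at -1.09. Of 8 tested HOX genes, which record position along the body axis, 0 were apart in either direction (median 0.08), and Hoxc5 was the lowest at -0.45. Receptors for growth factors and cytokines (28 tested) had 5 higher and 2 lower (median 0.08), from Fgfr1 at 1.42 to Acvr1c at -0.88. Axon guidance genes (41 tested) had 4 higher and 2 lower (median 0.14), from Sema3e at 0.69 to Ntng2 at -1.0. Cadherins and other adhesion genes (51 tested) had 4 higher and 2 lower (median -0.05), from Pcdh9 at 1.68 to Opcml at -0.94. Fibre type genes (21 tested) had 4 higher and 2 lower (median 0.01), from the neurofilament gene Ina at 0.88 to the calcium-binding S100b at -1.13. Nerve injury genes (19 tested) had 4 higher and 1 lower (median 0.22), from the cytokine Csf1 at 1.14 to Adcyap1. Vagal subtype genes (36 tested) had 5 higher and 0 lower (median 0.20), from Vip to Gpr65, and DESeq2 called Ddc (adjusted p = 0.039). The shares of all genes without overlap are those given above. With IntD mouse 19 left out Acvr1c was -0.52, Ina 0.49, Ntng2 -0.38, Pcdh9 0.91 and Opcml -0.50. Fgfr1 was 0.81 without IntM mouse 26 and Sema3e 0.40 without IntM mouse 20.

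Counted cell by cell, the Uts2b difference came from a minority of cells. Uts2b reached 10 reads in 3 of 15, 3 of 13 and 4 of 17 cells of the IntM mice, a mean of 22.2% ± 1.9 (SD, n = 3), and in 1 of 17, 1 of 14 and 0 of 4 cells of the IntD mice, 4.34% ± 3.81. The shares did not overlap, and the exact permutation p was 0.10, the smallest that 3 against 3 mice allow. In the top cell the level reached 12.64 in IntM and 13.53 in IntD, so a Uts2b level as high was found in a cell of either code. At 1 read per cell the shares overlapped, with a read of Uts2b in up to 76.9% of the cells of a mouse.

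Adora1 and Kcnk2 were spread over most cells instead. Adora1 reached 10 reads in 15 of 15, 13 of 13 and 16 of 17 IntM cells, and in 14 of 17, 13 of 14 and 2 of 4 IntD cells. The median cell of IntM mice 15, 20 and 26 was at 5.49, 5.25 and 7.81, and that of IntD mice 14, 18 and 19 at 4.42, 6.34 and 2.84. Kcnk2 reached 10 reads in 11 of 15, 11 of 13 and 14 of 17 IntM cells, against 10 of 17, 9 of 14 and 3 of 4 IntD cells, shares that overlapped (exact permutation p = 0.20). Fos was detected in 44 of 45 and 35 of 35 cells, so its share of cells was near 100% in both codes.

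The Uts2b cells shared a set of gut hormone receptors. Of the 10 IntM cells with Uts2b, all 10 also held Cckar, Npy2r, Glp1r and Kcnk3 at 10 reads, and 8 held Vip and 8 held Oxtr, the oxytocin receptor. Among the other 35 IntM cells, Cckar was found in 8.57%, Npy2r in 14.3%, Glp1r in 2.86%, Kcnk3 in 37.1% and Vip in 14.3%. Gpr65 was in 1 of the 10 Uts2b cells and in 57.1% of the others, and Edn3 in 0 and in 40%. Both IntD cells with Uts2b held Cckar, Npy2r, Glp1r, Kcnk3, Vip and Oxtr as well, and neither held Gpr65. These shares describe cells of 6 mice and carry no test. In droplet neurons of whole ganglia, 77.6% of Uts2b UMIs lay in 1 cluster of 86 of 1087 neurons, whose leading genes were Uts2b, Cckar and Myl1.

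Each picked cell was matched to the most similar of 27 clusters of droplet neurons. The cluster led by Gpr65, Galc and Edn3 took more cells of each code than any other cluster, 19 of 45 IntM and 23 of 35 IntD cells: 60%, 46.2% and 23.5% in IntM mice 15, 20 and 26, and 70.6%, 50% and 100% in IntD mice 14, 18 and 19. The mean was 43.2% ± 18.4 (SD, n = 3) in IntM and 73.5% ± 25.1 in IntD, and the mice overlapped (exact permutation p = 0.20). This cluster took 42.1% ± 23.2 of IntP cells (SD, n = 4) and 32.6% ± 8.42 of IntL cells (n = 3). All 4 cells of IntD mouse 19 belonged to it, and in IntM mouse 26 the cluster led by Efcab6 took more, at 41.2%. That cluster, led by Efcab6, Bub3 and Trpa1, was next, with 20.7% ± 17.9 in IntM and 17.4% ± 15.3 in IntD (exact p = 0.90). Clusters led by Uts2b and by Vip took 11% and 8.97% of IntM cells and 1.96% and 2.38% of IntD cells (exact p = 0.40 and 0.20). The cluster led by Sst, which took 44.3% of IntP cells, held 9.31% of IntM and 2.38% of IntD cells (exact p = 0.30). Only 9 of the 27 clusters received any cell of the 2 codes, and the pair led by glial genes received none.

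**Figure D4:**
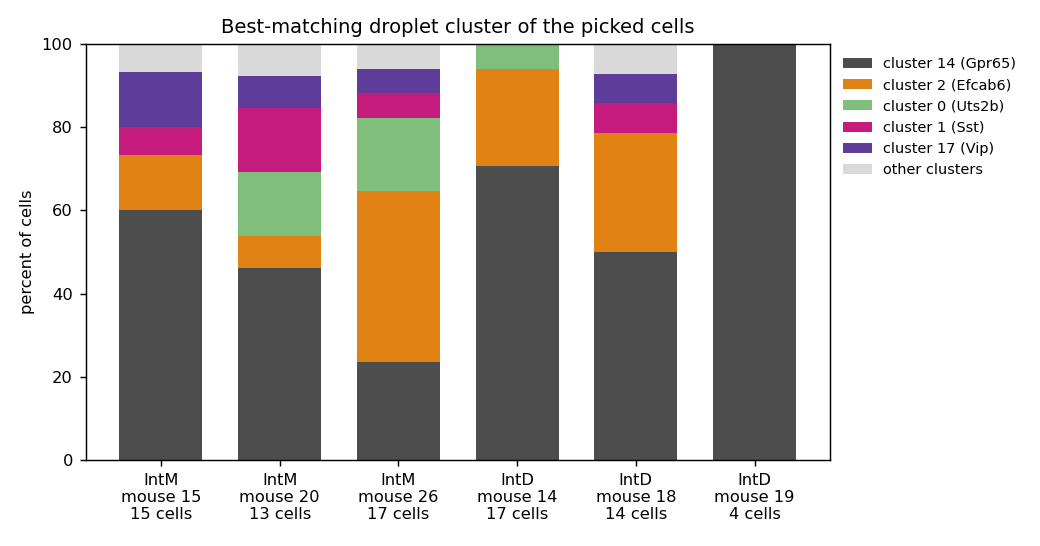
Stacked bars give, for each mouse (x axis, with its number of cells), the percent of picked cells whose best match was each droplet cluster (colours, named by number and leading gene). The Gpr65-led cluster ranges from 23.5% to 60% of IntM cells and from 50% to 100% of IntD cells, and IntD mouse 19 has 4 cells.

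The levels of several genes named above followed the matched type. Over the cells of both codes, H2-Ab1 had a median of 3.54 in the 42 cells matched to the Gpr65 cluster and 0 in those matched to the clusters led by Efcab6, Uts2b and Vip. C2 had a median of 2.75 in the Gpr65 type and 0 in the same 3 others. Kcnk3 ran the other way, at 0.87 in the Gpr65 type, 5.53 in the Efcab6 type, 9.30 in the Uts2b type and 9.69 in the Vip type. Adora1 had medians of 4.6, 6.80, 7.65 and 7.32 in the same order, and Hpcal1 9.84, 9.12, 3.78 and 5.66. Fos had medians of 6.28, 7.15, 8.49 and 8.19 in that order, and the part of the matched type in its difference was not tested. Kcnk2 was highest in the Efcab6 type, at 7.69, against 3.79 in the Gpr65 type. Clusters were matched on leading genes, so a level by type is a description.

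Differences were then taken within the Gpr65 type alone, with 9, 6 and 4 cells in the IntM mice and 12, 7 and 4 in the IntD mice, a comparison added after the data were seen. Over all genes, 5.93% were higher and 3.12% lower in every IntM mouse there. Fos was 7.46, 6.85 and 7.07 in IntM and 6.08, 6.11 and 5.62 in IntD, a difference of 1.19 with no overlap (exact permutation p = 0.10, the smallest possible). Kcnk2 was 3.76, 4.15 and 5.19 in IntM and 2.98, 3.39 and 2.95 in IntD, also without overlap. Adora1 was 5.29, 4.19 and 6.92 against 3.42, 4.40 and 2.64, with overlap and a difference of 1.98. The difference of Septin8 was 0.56, of Hunk 0.70, of C2 -1.52, of Oplah -0.90 and of Eif2s1 -0.37, each without overlap. That of Fgf14 was 1.08, of Slc16a3 0.85 and of H2-Ab1 -1.47, each with overlap. These genes, like Adora1 and Hpcal1, were picked for a low p over all cells of the same mice. Their values here reuse part of those cells and are no separate test. The difference of Hpcal1 was -0.02, against -1.21 over all cells. That of Gpr65 was -1.89 over all cells, -0.22 here with overlap, and 1.11 in the other cells. Chrna6 turned from -1.90 over all cells to 0.34 here, without overlap, and was -2.94 in the other cells. Kcnk18 and Adcyap1 turned to 0.18 and 0.21 here, with overlap, and were -0.90 and -1.68 in the other cells. Uts2b, Cckar, Npy2r, Vip and Kcnk3 were low in this type, with mouse means from 0 to 1.95 and differences between -0.24 and 0.31. Of the 19 immediate early genes 18 had a positive difference within the type (median 0.57) and 5 did not overlap, all higher in IntM. Over all genes, 7814 of 12705 had a positive difference within the type (median 0.08). In the cells outside the type IntD had 2 mice, and 8.28% of all genes were higher and 11.85% lower in every IntM mouse. Of the immediate early genes 14 of 19 had a positive difference there (median 0.32), against 5618 of all 12705 genes (median -0.04). Cckar differed by 2.45, Uts2b by 2.14 and Kcnk3 by 1.42, with every IntM mouse above both IntD mice, while Adora1 differed by 0.39 and overlapped (exact permutation p = 0.20, 0.20, 0.20 and 0.60, of which 0.20 is the smallest possible).

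**Figure D5:**
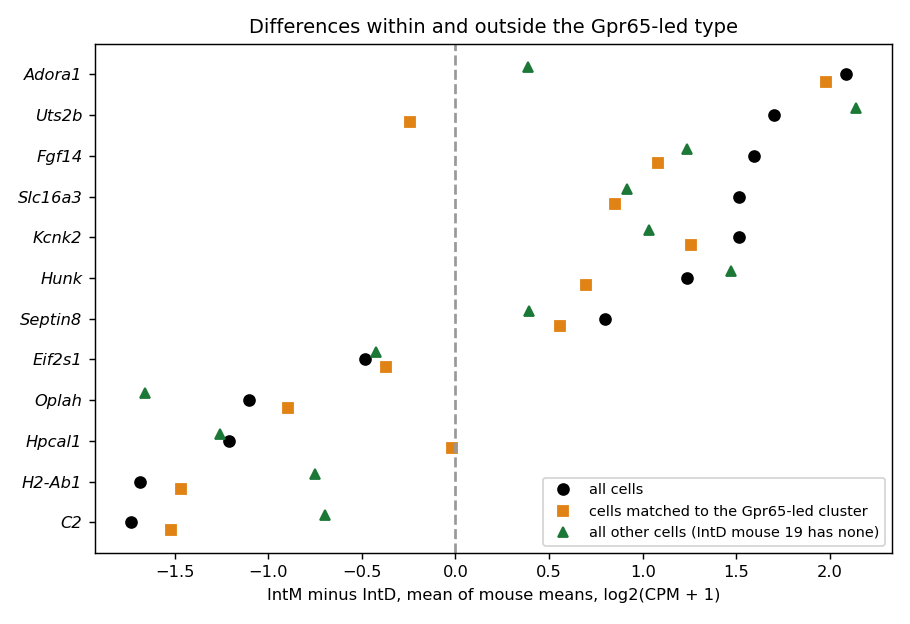
IntM minus IntD difference in log2(CPM + 1), as the mean of mouse means, for all cells (circles), for cells matched to the Gpr65-led cluster (squares) and for all other cells (triangles). Adora1 keeps a difference of 1.98 within the type and 0.39 outside it, Uts2b -0.24 and 2.14, and Hpcal1 -0.02 and -1.26.

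Set against the mean of IntP and IntL, IntD had called genes and IntM had none. In IntM 0 of 12705 genes (0%) passed the threshold (limma), with a lowest adjusted p of 0.064 and 1166 at an unadjusted p under 0.05. In IntD 0.952% of the genes passed, 30 higher and 91 lower. The Gpr65-led type had unlike mean shares in IntD, IntP and IntL, given above, and its part in these calls was not tested. Without IntD mouse 19, which has 4 cells, only 1 gene passed, the phosphatase gene Dusp8. All genes called with it kept their direction without it and had an unadjusted p under 0.05 (limma), and the median size of their differences was 0.849 of that with it. Those genes were chosen in a fit that shares the other IntD mice and the IntP and IntL mice, so this is no separate test. The calls numbered 79 without IntP mouse 17 and 60 without IntL mouse 33. Named after their values were seen, the largest rises in IntD, gene models apart, were Gpc3, a cell surface proteoglycan, and Cfap52, and the largest falls Klhdc8a and Zdhhc22. Gpc3 was 6.68 ± 0.69 (SD, n = 3) in IntD, 4.09 ± 0.60 in IntP (n = 4) and 3.71 ± 0.49 in IntL (n = 3), a difference of 2.78 ± 0.59 (SE; adjusted p = 0.016, limma). IntM stood beside IntD at 6.34 ± 0.39. Klhdc8a was 1.08 ± 0.41 in IntD, 3.70 ± 0.31 in IntP and 4.11 ± 1.13 in IntL, and IntM was 1.78 ± 0.99. Cfap52 was 4.61 ± 1.31 in IntD and 2.65 ± 1.61 in IntM, and Zdhhc22 2.05 ± 2.02 in IntD and 3.86 ± 1.17 in IntM. Of the genes named between IntM and IntD, Septin8 was lower in IntD (-0.67, adjusted p = 0.012, limma), while Uts2b (0.10), Kcnk2 (0.66) and Adora1 (-1.39) did not pass. In IntM the same 3 differed by 1.80, 2.17 and 0.70, with adjusted p of 0.12, 0.096 and 0.66 (limma).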

How the data were processed

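Picked cells were read from a deposited table in log2 units (log2 of reads, 36920 genes), whose floor of -5.64 was taken as 0 reads. Of the above-floor values 94.1% were whole within 1 part in 1000. Of its 453 columns, 1 matched no sample title and was dropped. The droplet matrix holds counts (UMIs) deposited by the authors for 1108 barcodes. The submitters' processing notes list Cell Ranger 2.0.1 and mm10. For the picked cells, aligner and counter are not given in the sources used here. Gene and barcode names come from the deposited gene table (unit other, per the file headers).

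Reads were scaled to CPM per cell, taken to log2(CPM + 1) and averaged per mouse with at least 4 cells. The 29 mice of 7 codes entered 1 limma 3.58.1 fit (R 4.3.3) with an intensity trend, on the 12705 genes that reached 10 reads in 5% or more of the coded cells, adjusted over all by Benjamini-Hochberg at 0.05. EdgeR 4.0.16 (quasi-likelihood) and DESeq2 1.42.0 on summed reads, other scalings, pseudocounts, filters, depths and left-out mice were alternatives. The fit was tested on simulated data. A gene counted as detected at 10 reads. Droplet cells with 1000 UMIs and 500 genes were clustered in scanpy 1.11.5 (leidenalg 0.10.2, resolution 1.5 for neurons). No doublet caller was run. Picked cells went to the cluster of highest Spearman correlation over 544 leading genes. For shares of cells, p-values are two-sided and come from the exact permutation test over mice.

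The text names the 3 markers and, gene models, mitochondrial, ribosomal and pseudogenes apart, the 5 genes of lowest p in each direction where under 5 passed (15 otherwise), and each list's highest and lowest difference. A few genes that the rule names, and the nodose marker sum, are not reported here. Members and the 20 gene lists and 10 marker sets were chosen with earlier results of these data known. Nothing in the labels gives a batch or date. A mouse is 1 animal per the table header, so p-values measure the spread between animals. Gene positions are from GENCODE M21 (GRCm38). The depth, 3 mice a code, limits the precision.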

Additional observations from a re-analysis of the deposited data

How the results depend on the processing

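No gene passed between IntM and IntD under other scalings, pseudocounts of 0.1 and 10, a stricter filter, the 6 mice alone, summed reads, no trend, 8000 genes per cell, cell-number weights, thinning to 100000 reads or edgeR. With no filter beyond 1 read 1 gene was higher, and DESeq2 called 65 higher and 17 lower. Leaving out each mouse gave 0 to 1 higher and 0 to 0 lower. For IntM against IntP and IntL the count was 1 at a pseudocount of 0.1 and with no filter, 2 with summed reads, 4 with cell-number weights and 4 after thinning, and 0 to 4 with each mouse left out. For IntD against IntP and IntL, 0.952% of genes passed. This became 0.519% (66 genes) with summed reads, 0.567% (72) at 8000 genes per cell, 0.299% (38) with cell-number weights, 0.575% (73) after thinning, and 0.00787% to 1.32% with each mouse left out. The lowest, 1 gene, was without IntD mouse 19. It was 0.622% without IntP mouse 17 and 0.472% without IntL mouse 33. These settings, and leaving out IntP and IntL mice, were added for these comparisons after the data were seen. Of 894 planned values for 45 named genes, 8 changed sign: Adcyap1 was 0.39 with summed reads, 0.67 in edgeR and 0.67 in DESeq2; Hoxc5 was 0.027 with summed reads, 0.33 after thinning and -0.84 to 0.054 with each mouse left out; and Dusp6 was 0.079 with summed reads and -0.95 to 0.048 with each mouse left out. At 1 read, the difference in the share of cells turned to -2.69 points for Cckar, 5.16 for Gpr65, -7.69 for Glp1r, 2.03 for Sst, -9.86 for Ctxn3, 0.183 for Rtp1, -12.4 for Npy1r, -2.20 for Camkv, -14.6 for Npas1, -12.4 for Gfra1 and 0.237 for S100b. Of the markers and the genes of lowest p, Uts2b changed sign within the Gpr65 type, at -0.24. With 15 leading genes per cluster 92.4% of picked cells kept their match. The cause of these changes was not tested. No paired analysis was possible because the codes' mice carry different numbers. Depth limits low genes, and 3 mice a code, 1 with 4 cells, limit the differences.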

Other observations

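DESeq2 on summed reads and limma on mouse means gave different sizes for several genes between IntM and IntD. Of the 82 genes DESeq2 called, 37 had an unadjusted limma p under 0.05 and 45 did not. The lowest adjusted p was for Fxyd7, an auxiliary subunit of the sodium pump, with a log2 fold of 5.55 in the summed reads (DESeq2, adjusted p = 2.9e-15), while the difference of its mouse means was 0.85 (limma, unadjusted p = 0.13; edgeR adjusted p = 0.37). Pdyn, the dynorphin precursor, had 5.89 in the summed reads and 0.68 in the mouse means. Plk2 and Nr4a3, both induced by neuronal activity, were also called by DESeq2, with 2.74 and 4.03 in the summed reads against 1.62 and 0.86 in the mouse means. These genes were named after their values were seen, and the cause of the difference between the tools was not tested.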
